A study of Mus musculus with 2 samples.

Results

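The interferon response and MHC class I genes examined here are 31 genes that were taken by symbol from the 32285 features of 2 single-cell libraries of mouse knee cartilage, and all 31 were found. They comprise 13 interferon-stimulated effectors, 6 RNA sensors and transcription factors, 3 guanylate-binding proteins, 3 immunoproteasome subunits, 3 peptide-loading genes and the MHC class I heavy chains H2-K1 and H2-D1 with their shared light chain B2m. The libraries came from wild-type (WT) mice, 3 after sham surgery and 3 after DMM surgery (destabilisation of the medial meniscus), which leaves the knee unstable and serves as a model of osteoarthritis. The cells of the 3 mice of a group entered 1 library, so each group is a single measurement. Before loading, live cells (Calcein AM+, DAPI-) without the surface proteins CD45, Ter119 and CD31 were sorted to leave out blood and endothelial cells. The age of the mice and the time after surgery are not given in the sources used here. With 1 library a group no difference between sham and DMM has a replicate check and no test was made.

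Type I interferons bind a receptor that signals through the kinases Jak1 and Tyk2 to a complex that holds Stat2 and Irf9, which binds interferon-stimulated response elements in promoters. The genes it turns on include antiviral effectors (Isg15, Rsad2, the Ifit genes, Oasl2), feedback (Usp18) and more of the pathway itself (Irf7, Stat2). MHC class I molecules show peptides at the cell surface, and interferon can raise the proteasome subunits that cut these peptides (Psmb8, Psmb9, Psmb10), the transporter that carries them (Tap1, Tap2) and the chaperone that helps load them (Tapbp). Guanylate-binding proteins are large GTPases that act against pathogens inside cells and respond mainly to interferon gamma. Erythroid cells lose their MHC class I as they mature, and hyaline cartilage has no vessels or resident blood cells.

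In GRCm38 coordinates with the GENCODE annotation, 7 of the 31 genes lie on chromosome 17 within the major histocompatibility complex. From the lowest coordinate they are Tapbp (chr17:33915899-33929292), H2-K1 (chr17:33996017-34000347), Psmb9 (chr17:34181987-34187764), Tap1 (chr17:34187553-34197225), Psmb8 (chr17:34197721-34201454), Tap2 (chr17:34203527-34216321) and H2-D1 (chr17:35262730-35267499). Psmb9 and Tap1 overlap on opposite strands at their starts. Ifit2, Ifit3 and Ifit1 are neighbours on chromosome 19, and Gbp7, Gbp3 and Gbp2 on chromosome 3. Counts of Ifit1, Ifit3, Ifi27, H2-K1, H2-D1 and the Gbp genes are less certain than the others, because each has close relatives (Ifit1bl1, Ifit3b, Ifi27l2a, the H2-Q genes, other Gbp genes) with which reads can be shared.

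The 250 bases before the start of each gene were read from RefSeq (GRCm38.p6), which matched 26 of the 31 genes with 31 entries; a gene was counted where any of its entries held a motif. The core of the interferon-stimulated response element was searched as GAAANNGAAA on both strands and was found in 10 of the 31 entries (32.3%), against 978 of all 32851 entries (2.98%). Each of the 10 was from a different gene. The 10 genes were Isg15, Ifit1, Ifit3, Bst2, Rsad2, Stat2, Gbp2, Gbp3, Gbp7 and B2m. By role they were 5 of 9 effectors, 1 of 6 sensors and transcription factors, 3 of 3 guanylate-binding proteins, 0 of 3 immunoproteasome genes, 0 of 2 peptide-loading genes and 1 of 3 MHC class I genes. The gamma-activated site, searched as TTCNNNGAA, was in 5 of the 31 entries (16.1%) and in 2306 of all entries (7.02%). Promoters of 6 genes are shown because the results turn on these genes, 5 with the element and H2-K1 without these letters. Capitals mark the matches, of which Isg15 has 3 that overlap, and a match on the other strand reads TTTCNNTTTC.
Isg15 promoter, chr4:156200819-156201068, minus strand: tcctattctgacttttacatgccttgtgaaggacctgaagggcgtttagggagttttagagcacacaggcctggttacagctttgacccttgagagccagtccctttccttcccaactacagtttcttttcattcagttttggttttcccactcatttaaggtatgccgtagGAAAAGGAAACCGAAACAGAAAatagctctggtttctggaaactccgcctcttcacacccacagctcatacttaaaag
Rsad2 promoter, chr12:26456453-26456702, minus strand: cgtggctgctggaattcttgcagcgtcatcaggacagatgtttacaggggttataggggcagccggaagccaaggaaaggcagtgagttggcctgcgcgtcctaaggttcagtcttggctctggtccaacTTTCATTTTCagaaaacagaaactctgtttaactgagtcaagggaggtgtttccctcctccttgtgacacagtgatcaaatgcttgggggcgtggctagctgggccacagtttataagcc
Ifit3 promoter, chr19:34583279-34583528, plus strand: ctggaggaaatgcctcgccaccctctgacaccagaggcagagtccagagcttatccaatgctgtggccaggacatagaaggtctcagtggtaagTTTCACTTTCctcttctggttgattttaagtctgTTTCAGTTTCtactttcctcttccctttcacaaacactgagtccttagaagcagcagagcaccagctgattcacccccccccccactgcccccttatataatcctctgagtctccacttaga
Gbp7 promoter, chr3:142530086-142530335, plus strand: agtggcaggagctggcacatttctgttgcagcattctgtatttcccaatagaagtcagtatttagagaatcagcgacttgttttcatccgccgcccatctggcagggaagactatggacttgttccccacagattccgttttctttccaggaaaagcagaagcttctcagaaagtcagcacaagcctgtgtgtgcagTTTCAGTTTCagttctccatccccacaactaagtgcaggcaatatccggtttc
B2m promoter, chr2:122147437-122147686, plus strand: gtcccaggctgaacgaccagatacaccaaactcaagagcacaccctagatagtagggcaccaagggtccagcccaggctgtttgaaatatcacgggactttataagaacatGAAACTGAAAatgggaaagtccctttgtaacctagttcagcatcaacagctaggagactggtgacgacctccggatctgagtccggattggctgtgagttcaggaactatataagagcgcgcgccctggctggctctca
H2-K1 promoter, chr17:34000348-34000597, minus strand: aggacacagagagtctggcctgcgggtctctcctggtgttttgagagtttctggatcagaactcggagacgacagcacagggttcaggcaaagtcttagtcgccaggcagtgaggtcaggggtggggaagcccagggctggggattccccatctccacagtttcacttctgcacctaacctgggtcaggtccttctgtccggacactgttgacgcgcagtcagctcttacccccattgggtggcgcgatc
In Isg15 the last match starts 66 bases before the gene, in Gbp7 53, in Rsad2 120, in Ifit3 122 and in B2m 139. A match describes these letters only, and no binding was measured.

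The sham library held 11362 barcodes and 106799078 unique molecular identifiers (UMIs, 1 per captured molecule), and the DMM library 11076 barcodes and 97346999 UMIs. After removal of called doublets and of cells with few genes or much mitochondrial RNA, 9512 and 9529 cells remained, with medians of 8057.5 and 7859 UMIs; 24 barcodes occurred in both libraries. Cells were grouped without using the 31 genes or the wider interferon list, and 11 classes were named from markers. In sham and DMM these were superficial zone chondrocyte-like (1960 and 1974 cells), chondrocyte-like (1509 and 1150), hypertrophic chondrocyte-like (526 and 398), synovial lining-like (357 and 918), fibroblast-like (1241 and 880), osteoblast-like (386 and 572), perivascular-like (386 and 323), marrow stromal-like (193 and 114), tendon or ligament-like (805 and 1119), erythroid-like (1544 and 891) and neutrophil lineage-like (86 and 61). The labels call the cells superficial cells of knee cartilage, but superficial zone chondrocyte-like cells were a minority of each library, and erythroid-like and neutrophil lineage-like cells were present although the sort was against Ter119 and CD45. The summed level of 9 superficial zone markers was 65675 (sham) and 71191 CPM (DMM) in the superficial class. In the chondrocyte class it was 641 (sham) and 671 CPM (DMM). The same markers gave the superficial class its name, so this gap is no separate check of the name. Levels are in CPM, the UMIs of a gene scaled to the total of its class, given for sham and then DMM, and brackets hold 95% intervals (exact Poisson for levels, exact binomial for shares and ratios) that cover counting error only.

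**Figure D1:**
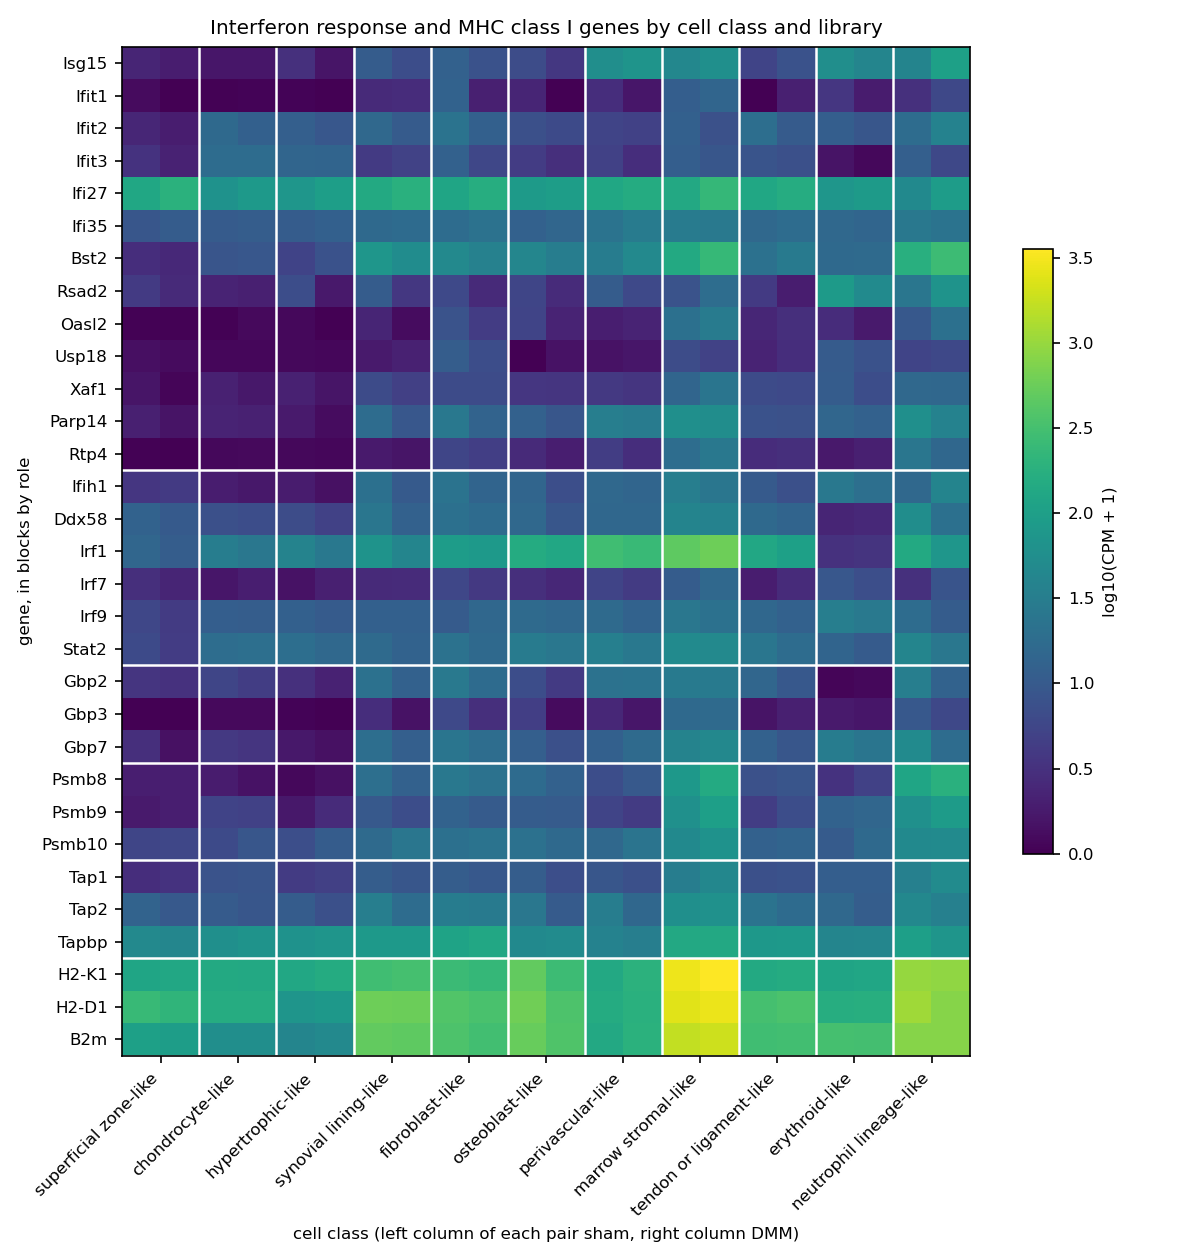
Level of each of the 31 genes (rows, in blocks by role) in the 11 cell classes (column pairs, sham left and DMM right), coloured by CPM on a log scale. The marrow stromal-like pair holds the highest level of 12 genes in both libraries, and the superficial pair is among the 3 lowest of the 11 classes in both libraries for 24 genes. For 8 of the 12 the interval of the marrow stromal-like class overlapped that of the next class in both libraries, and for Irf1, H2-K1, H2-D1 and B2m in neither.

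The 3 MHC class I genes were highest in the marrow stromal class, a cluster led by Esm1, Adipoq and Gdpd2 that stands for the Lepr+ Cxcl12-rich stroma of bone marrow. H2-K1 was at 2889.5 [2802, 2979] (sham) and 3560.1 [3426, 3698] CPM (DMM), H2-D1 at 2485 [2404, 2568] (sham) and 2777 [2659, 2899] CPM (DMM) and B2m at 1684 [1617, 1752] (sham) and 1903 [1805, 2004] CPM (DMM). In the superficial class H2-K1 was at 120.3 [115, 126] (sham) and 132 [127, 138] CPM (DMM), H2-D1 at 243 [236, 251] (sham) and 213 [206, 219.7] CPM (DMM) and B2m at 103 [98.3, 108] (sham) and 93.6 [89.2, 98.2] CPM (DMM). The intervals of the classes did not overlap in either library. The summed MHC class I level was 7058 CPM in marrow stromal and 466.7 in superficial cells of the sham library, a ratio of 15.1 [14.7, 15.6]. In the DMM library the sums were 8240.3 and 438.8 CPM, a ratio of 18.8 [18.2, 19.4]. Coarser clustering (Leiden resolution 0.5) gave 9.28 and 10.6. The ratio of H2-K1, 24.0 [22.8, 25.3] in sham and 26.9 [25.4, 28.4] in DMM, was larger than that of H2-D1, 10.2 [9.76, 10.7] in sham and 13.05 [12.4, 13.8] in DMM. With each cell thinned to 2000 UMIs, H2-K1 was detected in 96.6% (sham) and 99.0% (DMM) of marrow stromal cells and in 20.8% (sham) and 23.8% (DMM) of superficial cells. Ptprc, which encodes CD45, was at 0 in the marrow stromal class of both libraries.

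**Figure D2:**
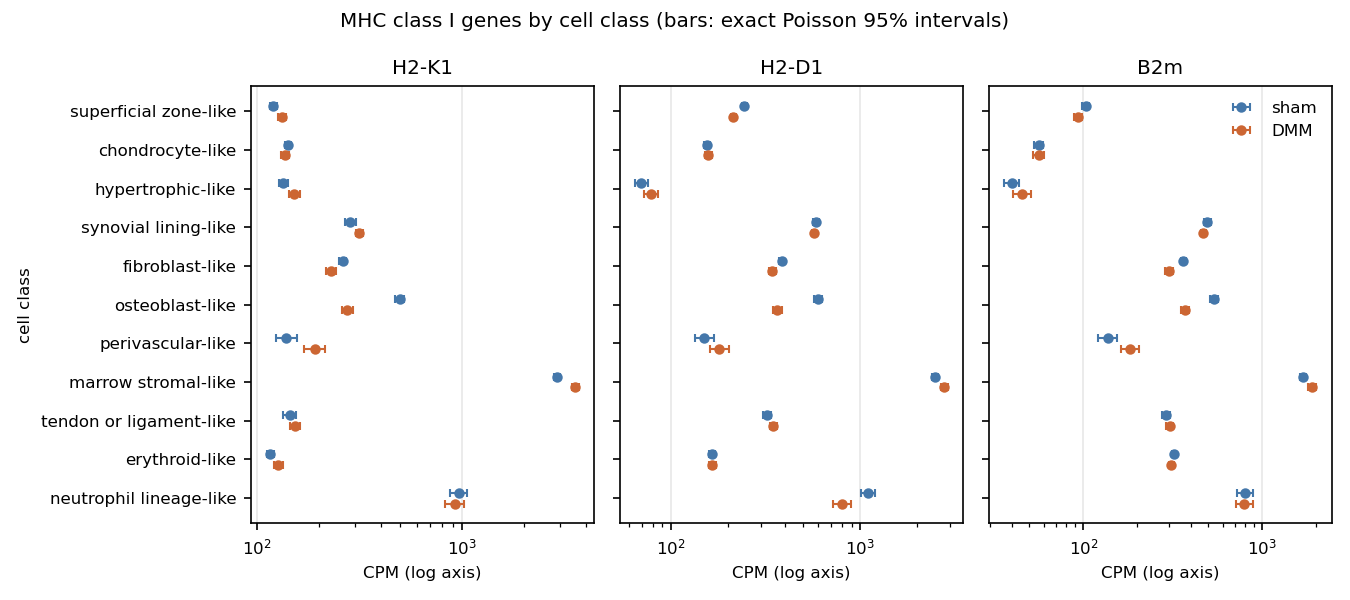
CPM (log axis) of H2-K1, H2-D1 and B2m in the 11 classes, sham and DMM as separate points with exact Poisson 95% intervals. The marrow stromal-like points lie to the right of all other classes for each gene, at 2889.5 and 3560 CPM for H2-K1.

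Between the other classes the order depended on the gene and held in both libraries for the following pairs. The neutrophil lineage class came second for H2-K1, H2-D1 and B2m in both libraries, with H2-K1 at 962 (sham) and 918 CPM (DMM); this class of 86 and 61 cells also held Ptprc at 568 (sham) and 293 CPM (DMM). Lining, fibroblast and osteoblast cells lay between these and cartilage, with B2m at 492 (sham) and 468 CPM (DMM) in lining cells, 362 (sham) and 300.3 CPM (DMM) in fibroblasts and 537 (sham) and 371 CPM (DMM) in osteoblasts. Hypertrophic chondrocytes, the last stage of chondrocyte maturation before bone, had the lowest H2-D1 of the 11 classes, at 69.7 (sham) and 78.0 CPM (DMM). H2-D1 was higher in superficial than in hypertrophic cells by a ratio of 3.49 [3.22, 3.78] in sham and 2.73 [2.49, 2.99] in DMM, and B2m by a ratio of 2.58 [2.32, 2.88] in sham and 2.06 [1.82, 2.33] in DMM. H2-K1 did not follow that order: it was at 135 (sham) and 152 CPM (DMM) in hypertrophic and 142 (sham) and 137 CPM (DMM) in chondrocyte cells, with superficial cells at 120.3 and 132.

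Classes were not uniform inside. In the chondrocyte class, the cluster led by Pcp4, Luzp2 and Rgs6 had H2-D1 at 227 (sham) and 226 CPM (DMM), and the cluster led by A2m had 99.9 and 114, a ratio of 2.27 [2.11, 2.45] in sham and 1.97 [1.81, 2.15] in DMM. In the osteoblast class, the cluster led by Car3, Dmp1 and Entpd3, of which Dmp1 marks late osteoblasts and osteocytes, had H2-K1 at 729 (sham) and 726 CPM (DMM). The cluster led by Ptprz1, Dkk1 and Ifitm5 had 149 and 113, so the ratio was 4.88 [4.18, 5.74] in sham and 6.40 [5.62, 7.31] in DMM. For B2m the ratio between these clusters was 2.32 [2.07, 2.62] in sham and 3.10 [2.80, 3.44] in DMM. Both libraries gave the same order, and the intervals of the clusters compared did not overlap.

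The genes that prepare peptides had the same leading class in part. Psmb10, Tap2 and Tapbp were highest in the marrow stromal class in both libraries, with Psmb10 at 47.8 (sham) and 64.0 CPM (DMM), but the intervals of all 3 overlapped those of the second class. Psmb8 was at 78.1 (sham) and 149 CPM (DMM) in marrow stromal and 0.970 and 0.998 in superficial cells, a ratio of 80.5 [48.1, 143] in sham and 149.7 [90.5, 262] in DMM. Psmb8, Tap1 and the effector Bst2, which tethers budding virus to the cell, were highest in the neutrophil lineage class, with intervals that overlapped those of the marrow stromal class. The catalytic subunit Psmb8 was so rare in cartilage that 17 and 18 UMIs stood for all superficial cells, whereas the chaperone Tapbp was at 46.7 (sham) and 42.0 CPM (DMM) there and at 57.3 (sham) and 65.7 CPM (DMM) in chondrocytes. Tap1 was higher in chondrocytes than in superficial cells by a ratio of 3.61 [2.48, 5.41] in sham and 3.36 [2.33, 4.95] in DMM.

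Among the transcription factors, Irf1, which drives MHC class I and other genes of the interferon gamma response, had a steep order across stromal classes. It was at 465 [430.3, 502] (sham) and 583 [529, 640.0] CPM (DMM) in marrow stromal, 288 (sham) and 257 CPM (DMM) in perivascular, 149.8 (sham) and 135 CPM (DMM) in osteoblast and 13.7 (sham) and 10.1 CPM (DMM) in superficial cells. Marrow stromal exceeded superficial cells by a ratio of 33.9 [29.2, 39.5] in sham and 57.8 [48.5, 69.0] in DMM, and perivascular cells exceeded them by a ratio of 21.0 [18.0, 24.5] in sham and 25.4 [21.3, 30.5] in DMM. Stat2, a transcription factor of the type I interferon response, was higher in chondrocytes than in superficial cells by a ratio of 3.35 [2.66, 4.25] in sham and 5.62 [4.23, 7.57] in DMM. Its partner Irf9 was highest in the erythroid class, at 32.4 (sham) and 26.5 CPM (DMM), with intervals that overlapped those of marrow stromal cells. The RNA sensor Ddx58 (RIG-I) was the reverse of Stat2 within cartilage, with superficial over chondrocyte ratios of 1.96 [1.57, 2.46] in sham and 1.52 [1.16, 2.00] in DMM. The other sensor, Ifih1 (MDA5), was at 2.68 (sham) and 2.99 CPM (DMM) in superficial cells and 21.4 and 12.8 in fibroblasts. Irf7, which amplifies interferon production, was at 9.85 (sham) and 14.7 CPM (DMM) in marrow stromal cells and at 2.05 and 1.33 in superficial cells.

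The guanylate-binding proteins were low in cartilage. Gbp3 had no UMI in superficial cells of either library, which allows up to 3 UMIs, and was at 15.5 (sham) and 16.0 CPM (DMM) in marrow stromal cells. Gbp2 was higher in fibroblasts than in superficial cells by a ratio of 10.2 [7.43, 14.4] in sham and 7.56 [5.14, 11.3] in DMM. Gbp7 was at 38.0 (sham) and 44.0 CPM (DMM) in marrow stromal cells and, unlike Gbp2 at 0.116 and 0.176, was also present in erythroid cells at 29.9 and 22.9.

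The 13 effectors did not share an order of classes. Isg15, a ubiquitin-like protein that is attached to other proteins, was at 56.5 (sham) and 68.5 CPM (DMM) in perivascular, 42.9 and 58.7 in marrow stromal, 11.5 and 6.82 in fibroblast, 9.74 and 5.87 in lining and 1.31 and 0.942 in superficial cells. Blood cell classes also held Isg15, with erythroid cells at 56.3 and 39.7 and neutrophil lineage cells at 38.7 and 102, and the intervals of the 2 highest classes overlapped in each library (perivascular and erythroid in sham, neutrophil lineage and perivascular in DMM). Perivascular cells exceeded superficial cells by a ratio of 43.1 [27.4, 70.6] in sham and 72.6 [43.3, 129] in DMM and fibroblasts by a ratio of 4.91 [3.74, 6.45] in sham and 10.0 [6.87, 14.9] in DMM. An Isg15 UMI was found in 20.2% (sham) and 22.3% (DMM) of perivascular cells (medians of 5134.5 and 4655 UMIs) and in 0.510% (sham) and 0.557% (DMM) of the more deeply sequenced superficial cells (7764 and 7973.5). The Ifit genes, which bind viral RNA, had a different pattern in cartilage: Ifit3 was at 17.2 (sham) and 16.9 CPM (DMM) in chondrocytes and 2.28 and 1.22 in superficial cells. The chondrocyte over superficial ratio was 7.51 [5.41, 10.7] in sham and 13.8 [8.92, 22.5] in DMM for Ifit3 and 10.6 [7.07, 16.7] in sham and 11.9 [7.18, 20.9] in DMM for Ifit2. Ifit1, their neighbour, was near absent from both, with at most 0.285 CPM. Of the 11 classes, the chondrocyte class had the highest Ifit3 in both libraries, with the hypertrophic class next at 13.6 and 13.2 CPM and intervals that overlapped.

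Ifi27, a mitochondrial membrane protein gene, was present in every class. It ranged from 47.3 CPM in sham neutrophil lineage cells to 229 in DMM marrow stromal cells, and was at 129 [124, 134] (sham) and 186 [180.2, 193] CPM (DMM) in superficial and 63.0 [59.7, 66.5] (sham) and 81.0 [76.4, 85.8] CPM (DMM) in chondrocyte cells. Superficial exceeded chondrocyte cells by a ratio of 2.05 [1.91, 2.19] in sham and 2.30 [2.15, 2.46] in DMM, so among the effectors Ifi27 was on the other side of the zonal difference from Ifit2 and Ifit3. Ifi35 and Parp14 both had UMIs in every class, Ifi35 within a narrow range of 7.93 to 29.2 CPM and Parp14 from 0.296 to 58.4. Oasl2, Usp18, Xaf1 and Rtp4 were below 2 CPM in superficial cells of both libraries.

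Erythroid cells showed 2 opposite gradients. Their 3 clusters were led by Myb, Car1 and Gatm (456 and 365 cells), by histone genes (857 and 438), and by Slfn14, Cd36 and Tmcc2 (231 and 88), and 9 erythroid markers made up 4.90% and 5.88%, 17.1% and 17.2%, and 59.4% and 58.2% of their UMIs. Rsad2 (viperin, an enzyme that makes a chain-terminating nucleotide) was at 20.3, 53.6 and 867 CPM in the Myb, histone and Slfn14 cluster of sham and 16.3, 29.2 and 692 of DMM. Isg15 followed the same order, at 22.5, 55.0 and 337 CPM in the Myb, histone and Slfn14 cluster of sham and 17.8, 43.6 and 325 of DMM. B2m had the reverse order, at 387, 286 and 73.2 CPM in the Myb, histone and Slfn14 cluster of sham and 351, 269.6 and 93.9 of DMM. H2-K1 and H2-D1 went with B2m, H2-K1 from 173 to 15.4 CPM in sham and from 166 to 10.9 in DMM. The orders were the same in both libraries.

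**Figure D3:**
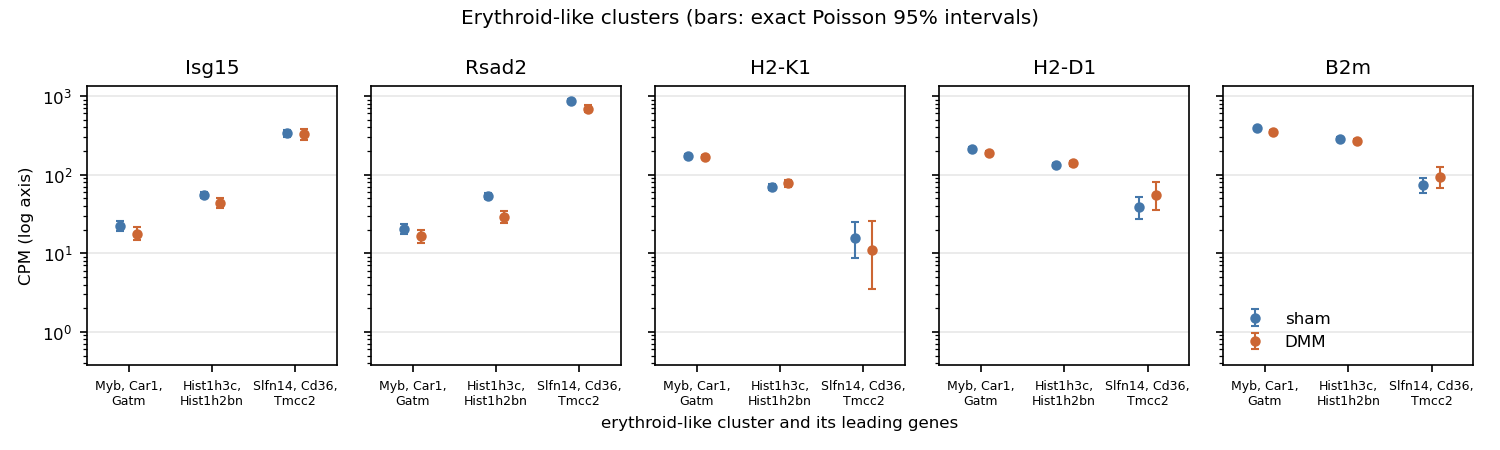
CPM (log axis) of Rsad2, Isg15, H2-K1, H2-D1 and B2m in the 3 erythroid-like clusters, named by their leading genes, with exact Poisson 95% intervals and a point for each library. Rsad2 and Isg15 go up from the Myb to the Slfn14 cluster while the 3 MHC class I genes go down, in sham and in DMM.

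The Slfn14 over Myb ratio was 42.6 [36.1, 50.6] in sham and 42.3 [34.0, 53.1] in DMM for Rsad2 and 14.99 [12.5, 18.0] in sham and 18.2 [14.2, 23.4] in DMM for Isg15, and the Myb over Slfn14 ratio was 5.29 [4.22, 6.74] in sham and 3.74 [2.76, 5.18] in DMM for B2m. In the Slfn14 cluster a Rsad2 UMI was found in 79.7% (sham) and 72.7% (DMM) of cells (medians of 4394 and 4946.5 UMIs), against 1.07% (sham) and 0.507% (DMM) of superficial cells. A single cell held 18.9% (sham) and 37.6% (DMM) of the Isg15 UMIs of that cluster. Because globin fills the Slfn14 cluster, ratios were also taken with the 9 erythroid markers left out of the total, a choice made after seeing the data: the B2m ratio was then 2.26 and 1.66 and the Rsad2 ratio 99.9 and 95.4. In UMIs per cell, B2m was at 7.06 and 6.47 in the Myb cluster and 0.329 and 0.489 in the Slfn14 cluster, while Rsad2 was at 0.371 and 0.301 against 3.90 and 3.60. The order of the Myb and Slfn14 clusters was the same on each of these scales. That of the histone cluster was not: its Rsad2 in DMM was at 0.279 UMIs per cell, beside 0.301 in the Myb cluster.

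To compare DMM with sham, a gene was counted as higher or lower where it had at least 50 UMIs over both libraries, its CPM differed by at least 1.5-fold and the interval of the ratio left out 1. The median log2 ratio of all genes with that many UMIs was -0.16 in the superficial, the chondrocyte and the pooled connective tissue class. The members' median is read beside that shift. The rule, the intervals and the directions by cluster compare each ratio with 1 and do not take the shift out. For that reason the share of all genes that passed the same rule is given beside each count. In the superficial class 19 of the 31 genes had enough UMIs; 0 were higher, where 3.14% of 12453 genes were, and 3 were lower, where 13.3% were. The share of lower genes was near that of all genes. The 3 were Rsad2, 1.88-fold lower [1.17, 3.07], Ifit3, 1.87-fold lower [1.09, 3.31], and Stat2, 1.60-fold lower [1.14, 2.25]. Rsad2 rested on 53 and 29 UMIs, of which a single cell held 18.9% (sham) and 55.2% (DMM). Leaving out the cell with most Rsad2 in each library took the log2 ratio from -0.91 to -1.77, still counted as lower. Hbb-bs, a globin of erythroid cells that reaches other droplets as free RNA, was at 1619 (sham) and 675 CPM (DMM) in this class, and whether such RNA has a share in the Rsad2 difference was not tested. With median-of-ratios scaling only Rsad2 remained among the lower genes. After thinning to 2000 UMIs per cell, Rsad2, Ifit3 and Stat2 had under 50 UMIs, and Ddx58 and Irf1 were counted as lower instead. The members' median was -0.25.

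Ifi27 went the other way in superficial cells, at 129 (sham) and 186 CPM (DMM), a DMM over sham ratio of 1.45 [1.37, 1.52] that was under 1.5 on the CPM scale and passed it with median-of-ratios scaling (log2 0.69), without the 50 most abundant genes (0.59) and after thinning (0.72). With cells thinned to 2000 UMIs, Ifi27 was detected in 19.6% (sham) and 28.7% (DMM) of superficial cells. The same direction was seen in each of the 24 clusters with at least 50 Ifi27 UMIs, with an interval above 1 in 21 of them and log2 ratios from 0.11 to 0.96. The MHC class I genes differed less: H2-K1 had a ratio of 1.10 [1.04, 1.17], H2-D1 0.875 [0.837, 0.914] and B2m 0.908 [0.849, 0.971], and B2m changes sign with median-of-ratios scaling. Across clusters B2m was higher in 10 and lower in 15. The superficial class pools clusters whose H2-D1 levels and cell numbers differ. H2-D1 was at 218 (sham) and 211 CPM (DMM) in the cluster led by Krt17 (607 and 937 cells). In the cluster led by Casr (815 and 542 cells) it was at 314 and 276 CPM. Whether this mix has a share in the H2-D1 difference was not tested.

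In the chondrocyte class 19 genes had enough UMIs, and 0 were higher and 0 lower, where 1.23% and 8.62% of 12737 genes were. With called doublets kept, 4 were lower. The members' median was -0.03. Psmb10 came nearest, with a ratio of 1.47 [1.12, 1.92], and is higher by the rule with median-of-ratios scaling. Ifit3, high in these cells, was at 17.2 (sham) and 16.9 CPM (DMM) (0.982 [0.830, 1.16]), and B2m at 56.5 and 56.4 CPM (0.998 [0.911, 1.09]). The interval of B2m leaves out a difference as large as 1.5-fold in either direction, within counting error.

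In synovial lining cells, which make the joint's lubricating fluid, the lower genes came from every group but MHC class I. Of 25 genes with enough UMIs, 0 were higher and 11 lower in DMM, where 5.38% and 11.8% of 10435 genes were, and the members' median was -0.54 against -0.10 for all genes. Both RNA sensors were among them: Ifih1 was at 19.2 (sham) and 9.0 CPM (DMM), 2.14-fold lower [1.54, 2.95], and Ddx58 at 24.1 (sham) and 11.7 CPM (DMM), 2.05-fold lower [1.54, 2.73]. Tap2 was 1.88-fold lower [1.48, 2.40], Parp14, an enzyme that adds ADP-ribose to proteins, 2.02-fold lower [1.43, 2.85], Irf1 1.58-fold lower [1.34, 1.86] and Gbp2 1.74-fold lower [1.28, 2.35]. The other 5 were Isg15, Ifit2, Rsad2, Gbp7 and Psmb8. Rsad2 was 3.57-fold lower [2.11, 6.11] on 36 and 27 UMIs, with 30.6% (sham) and 25.9% (DMM) of them in a single cell. H2-K1, H2-D1 and B2m were not among the lower genes, with ratios of 1.11 [1.03, 1.19], 0.976 [0.929, 1.03] and 0.953 [0.902, 1.01]. The class had 357 cells in sham and 918 in DMM, and its level of the globin Hbb-bs was 2798 (sham) and 187 CPM (DMM); whether free RNA has a share in the difference was not tested. After thinning, 1 gene (Tap2) was counted as lower. Irf1 kept enough UMIs and was not counted, with a log2 ratio that went from -0.66 to -0.45. The rest of the 11 then had under 50 UMIs, and their ratios moved both ways. Parp14 went from a log2 ratio of -1.02 to 0.11 and Gbp2 from -0.80 to -0.27, while Ddx58 went from -1.04 to -1.23 and Gbp7 from -0.75 to -0.86. With median-of-ratios scaling Isg15, Ifit2 and Irf1 were no longer counted as lower, and Psmb10 was counted as higher.

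In the fibroblast class all 31 genes had enough UMIs; 1 was higher and 11 were lower, where 4.69% and 6.67% of 10632 genes were, and the median was -0.36 against -0.05 for all genes. The 11 lower genes were 8 effectors (Isg15, Ifit1, Ifit2, Ifit3, Rsad2, Oasl2, Usp18, Parp14) with Ifih1, Gbp2 and Gbp3. After thinning, 6 were lower, of which Ifit2, Parp14, Ifih1 and Gbp2 were among the 11 and Gbp7 and Psmb9 were not. The rest of the 11 then had under 50 UMIs. Ifit2 was at 21.7 (sham) and 11.3 CPM (DMM), 1.92-fold lower [1.44, 2.59], and Parp14 at 25.2 (sham) and 12.6 CPM (DMM), 2.01-fold lower [1.53, 2.66]. Ifit1 had 113 and 6 UMIs and was 11.4-fold lower [5.08, 31.7], but 60.2% of the sham count sat in a single cell. Leaving out the cell with most Ifit1 in each library took the log2 ratio from -3.51 to -2.45. A single cell also held 25.2% of the sham Ifit3 UMIs. The higher gene was Irf9, 1.54-fold higher [1.12, 2.11], at 9.46 (sham) and 14.5 CPM (DMM), and 10 alternative settings left it short of the rule. The macrophage and monocyte markers summed to 35.0 (sham) and 29.6 CPM (DMM) in this class, Hbb-bs was at 1269.7 (sham) and 545 CPM (DMM), and the T or NK cell markers were at 0 in both.

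Within the fibroblast clusters fewer genes had enough UMIs, and Gbp3, Oasl2 and Rsad2 had under 50 in each. In the cluster led by Ccl7 and Ccl2 (707 and 563 cells), Isg15 was at 14.8 (sham) and 7.51 CPM (DMM), Ifit3 at 14.4 and 4.81 and Parp14 at 24.4 and 13.5. In the cluster led by Pi16, Dpp4 and Opcml (534 and 317 cells), Ifit2 was at 29.4 (sham) and 14.7 CPM (DMM) and Parp14 at 26.2 and 11.2. Parp14 was counted as lower in both clusters, Isg15 and Ifit3 in the Ccl7 cluster, and Isg15 and Ifit3 had under 50 UMIs in the Pi16 cluster. Over the clusters of all classes, Isg15 had an interval above 1 in 3 and below 1 in 3 of the 9 with enough UMIs. Ifit2 had an interval above 1 in 0 and below 1 in 7 of 11, Ifit3 in 0 and 2 of 6 and Parp14 in 0 and 3 of 8.

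**Figure D4:**
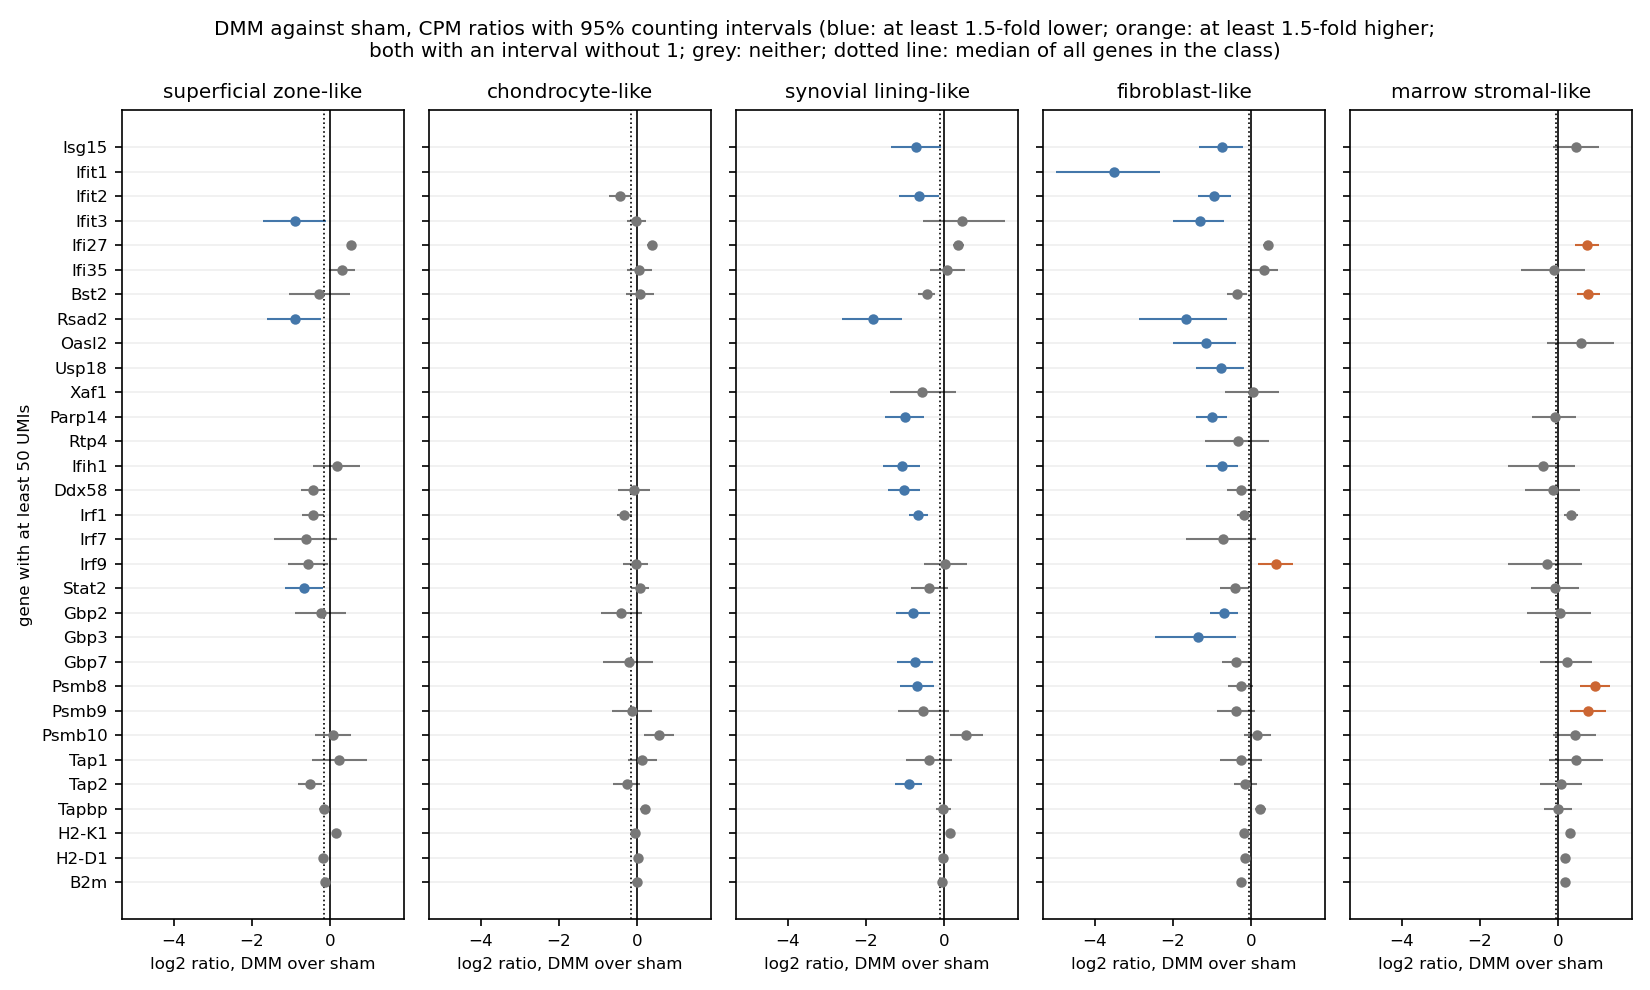
Log2 ratio of CPM, DMM over sham, with 95% counting intervals for each gene with at least 50 UMIs in the superficial, chondrocyte, lining, fibroblast and marrow stromal-like classes; blue and orange mark genes counted as lower and higher and the dotted line is the median of all genes. Blue points number 3, 0, 11, 11 and 0 in that order, and the 4 orange points of the marrow stromal class are Ifi27, Bst2, Psmb8 and Psmb9.

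The marrow stromal class differed in direction from the lining and fibroblast classes. Of 22 genes with enough UMIs, 4 were higher and 0 lower in DMM, where 9.92% and 9.72% of 6192 genes were, and the median was 0.19 against -0.05. Psmb8 was at 78.1 (sham) and 149 CPM (DMM), 1.91-fold higher [1.46, 2.51], Bst2 at 142 (sham) and 241 CPM (DMM), 1.70-fold higher [1.38, 2.09], Psmb9 1.69-fold higher [1.22, 2.34] and Ifi27 1.65-fold higher [1.34, 2.04]. H2-K1 was 1.23-fold higher [1.17, 1.29], short of 1.5-fold. At a 2-fold minimum none of the 4 was counted. These genes were not higher in this class alone. In neutrophil lineage cells Bst2 was at 174 (sham) and 269 CPM (DMM), Psmb8 at 121 and 177 and Psmb9 at 60.3 and 87.2. Ifi27 was higher in each of the 24 clusters with enough UMIs. Bst2 had an interval above 1 in 4 and below 1 in 3 of 18 such clusters, and Psmb8 in 2 and 2 of 8. The class held 193 and 114 cells, Hbb-bs was at 2085 (sham) and 185 CPM (DMM) in it, and the superficial zone markers at 516 (sham) and 3277 CPM (DMM); whether these have a share in the difference was not tested.

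In the osteoblast class 19 genes had enough UMIs, and 0 were higher and 5 lower, where 5.57% and 14.8% of 9252 genes were. The 5 were Ifih1, Ddx58, Tap2, H2-K1 and H2-D1, and the count was 8 in 3 of the alternative clusterings or filters and 2 after thinning. H2-K1 was at 497 (sham) and 275 CPM (DMM), 1.81-fold lower [1.67, 1.95], yet within the Dmp1 cluster it was at 729 and 726, a ratio of 0.997 [0.911, 1.09], and within the Ptprz1 cluster at 149 and 113, a ratio of 0.760 [0.633, 0.916]. The Dmp1 cluster, which is the higher in H2-K1, held 156 of 386 osteoblast cells in sham and 83 of 572 in DMM. The lower class level of H2-K1 was measured together with a lower share of the cluster that has the higher level. Whether that share has a part in the difference was not tested. H2-D1 was lower in DMM within both clusters, at 780 (sham) and 624 CPM (DMM) in the Dmp1 cluster. In the Ptprz1 cluster H2-D1 was at 326 (sham) and 273 CPM (DMM).

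Over the pooled connective tissue clusters (7704 and 8493 cells) all 31 genes had enough UMIs; 0 were higher and 7 lower, where 4.03% and 14.4% of 16528 genes were. The 7 were Ifit1, Ifit2, Rsad2, Oasl2, Usp18, Parp14 and Gbp3, and median-of-ratios scaling left Ifit1, Rsad2 and Gbp3. After thinning, Rsad2, Usp18 and Parp14 stayed lower, Ifit2 did not, and Ifit1, Oasl2 and Gbp3 had under 50 UMIs. Ifit3, Ifih1, Irf7 and Gbp7 were then counted as lower. Rsad2 was at 4.01 (sham) and 1.62 CPM (DMM), 2.48-fold lower [2.00, 3.08], and Gbp3 at 1.34 (sham) and 0.658 CPM (DMM), 2.04-fold lower [1.44, 2.92]. Isg15, which did not reach the rule, was at 5.63 (sham) and 4.85 CPM (DMM), a ratio of 0.862 [0.748, 0.992]. This pool mixes classes whose cell numbers differed between the libraries. Of the sham Ifit1 UMIs, 45.03% were in a single cell.

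A wider list of 93 pathway genes around the members was counted in the same way. It was chosen with earlier results of these data known. In the superficial class 49 had enough UMIs, 1 was higher (the MHC class II chain H2-Ab1, 1.51-fold higher [1.28, 1.78]) and 4 lower, where 3.14% of all genes were higher and 13.3% lower, so the lower share was not above that of all genes. The lower genes were the receptor subunit Ifnar1, at 19.1 (sham) and 10.9 CPM (DMM), 1.75-fold lower [1.46, 2.09], the RNA-activated kinase Eif2ak2, 1.51-fold lower [1.253, 1.83], and the non-classical MHC class I genes H2-Q4, 1.93-fold lower [1.49, 2.52], and H2-Q7, 2.29-fold lower [1.90, 2.76]. In the chondrocyte class 57 had enough UMIs, 1 was higher (Ifitm3, which blocks virus entry, 1.58-fold higher [1.12, 2.22]) and 3 were lower, where 1.23% and 8.62% of all genes were, again no larger share of lower genes. The lower genes were Adar, 1.55-fold lower [1.19, 2.02], Irgm1, 1.70-fold lower [1.37, 2.12], and the chemokine Cxcl10, 2.68-fold lower [1.56, 4.86], of which a single cell held 48.5% (sham) and 41.2% (DMM). The list medians were -0.10 and -0.13, beside -0.16 for all genes of both classes.

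In the pooled connective tissue 74 of the pathway genes had enough UMIs, with 5 higher and 13 lower, where 4.03% and 14.4% of all genes were, so both shares were near those of all genes. The higher genes were Ifitm2, at 368 (sham) and 598 CPM (DMM), 1.63-fold higher [1.60, 1.65], Ifitm3, 1.60-fold higher [1.57, 1.64], the chemokines Cxcl9 and Ccl5 and the MHC class II chain H2-Eb1. The lower genes included Nlrc5, the transactivator of MHC class I genes, at 11.03 (sham) and 5.21 CPM (DMM), 2.12-fold lower [1.88, 2.39], the kinase Jak2, 1.63-fold lower [1.57, 1.69], the GTPases Iigp1, 2.29-fold lower [1.98, 2.67], and Irgm1, 2.02-fold lower [1.75, 2.33], and H2-Q4, 1.90-fold lower [1.80, 2.02]. The other 8 were Ptpn6, Ifi27l2a, Herc6, Cd274, Ifi47, Gbp5, Gbp6 and H2-Q6. Nlrc5 was lower while H2-K1 and B2m of the same pool had ratios of 0.944 [0.924, 0.965] and 1.11 [1.08, 1.13], and H2-D1 a log2 ratio of 0.07. The pool mixes classes that differ in MHC class I level and whose cell numbers differed between the libraries. Whether Nlrc5 and these genes are linked here was not tested.

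Each cell was thinned to 2000 UMIs and counted where at least 3 of the 13 effectors had a UMI. This threshold is a range and not a cell type. The share of such cells also rises with the level of each effector on its own. Whether effectors share cells more often than their separate levels give was not tested. In the superficial class this held for 1 of 1929 cells (0.0518% [0.00131, 0.288]) in sham and for 0 of 1954 in DMM, which allows up to 0.154%. In the marrow stromal class it held for 14 of 179 cells (7.82% [4.34, 12.8]) in sham and 14 of 101 cells (13.9% [7.79, 22.2]) in DMM, and in the Slfn14 erythroid cluster for 23 of 214 cells (10.7% [6.94, 15.7]) and 10 of 81 cells (12.3% [6.08, 21.5]). In fibroblasts it held for 20 of 1190 cells (1.68% [1.03, 2.58]) in sham and 4 of 834 cells (0.480% [0.131, 1.22]) in DMM, with intervals that overlap. In the Pi16 fibroblast cluster it held for 12 of 524 cells (2.29% [1.19, 3.97]) in sham, with up to 8 effectors in a cell, and for 1 of 308 cells (0.325% [0.00822, 1.80]) in DMM. Over the pooled connective tissue the shares were 0.749% and 0.561%.

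**Figure D5:**
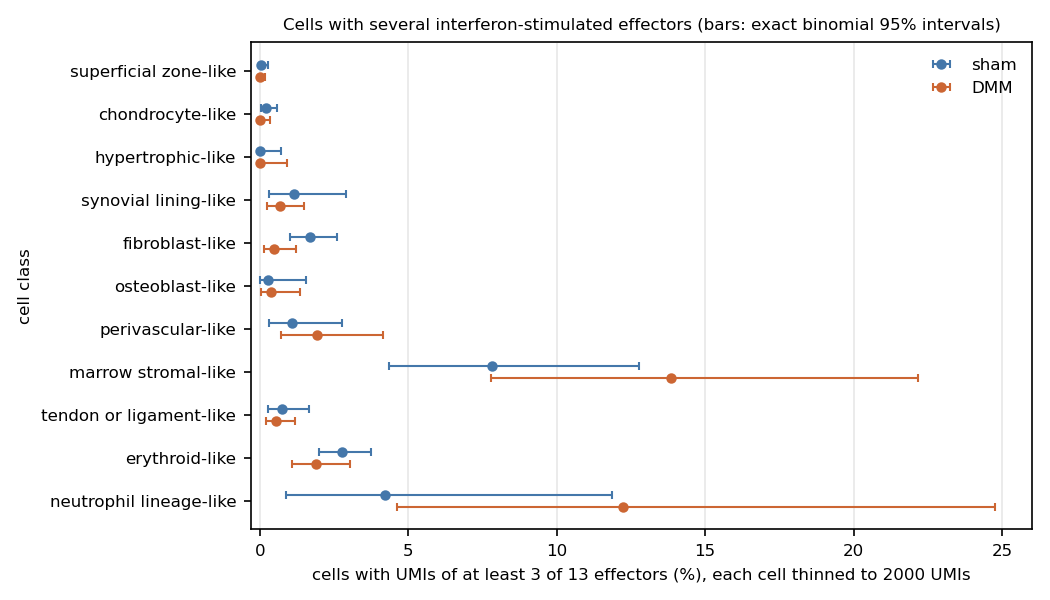
Share of cells (%) with UMIs of at least 3 of the 13 interferon-stimulated effectors, by class and library, each cell thinned to 2000 UMIs, with exact binomial 95% intervals. The marrow stromal-like class has the highest shares of the 11 classes, 7.82% in sham and 13.9% in DMM, with intervals that overlap the neutrophil lineage-like class, and the cartilage classes lie at or near 0.

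Other samples of the series were sorted on Procr, the endothelial protein C receptor, a protein with an MHC class I-like fold. Superficial cells with a Procr UMI (140 in sham and 148 in DMM) were set against those without a Procr UMI (1820 and 1826). The summed MHC class I level was 505 against 463 CPM in sham, a ratio of 1.09 [1.01, 1.18], and 480.1 against 435 in DMM, a ratio of 1.10 [1.02, 1.19]. The excess was in H2-D1 in sham, 1.18 [1.06, 1.30], and in H2-K1 in DMM, 1.19 [1.04, 1.36], so the 2 libraries did not show it for the same gene. For the summed effectors the ratio was 1.04 [0.904, 1.19] in sham and 1.13 [1.01, 1.26] in DMM, and for Ifi27 alone 1.08 [0.928, 1.24] and 1.15 [1.03, 1.29]. These are not separate observations. In sham, Ifi27 held 207 of the 232 effector UMIs of Procr cells and 2053 of the 2383 of cells without a Procr UMI. Procr cells had medians of 9004 and 9342 UMIs against 7656 and 7821.5. With each cell thinned to 2000 UMIs, the MHC class I ratio was 1.08 [0.909, 1.28] in sham and 0.955 [0.792, 1.14] in DMM. The Ifi27 ratio was then 1.22 [0.853, 1.71] in sham and 1.41 [1.10, 1.80] in DMM, and that of the effectors 1.23 [0.888, 1.67] and 1.29 [1.00, 1.63]. Thinning left 148 of 758 MHC class I UMIs of the Procr cells in sham and 129 of 772 in DMM, which widens the intervals.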

How the data were processed

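Single cells of mouse knee cartilage were measured in 1 library for sham and 1 for DMM. The deposited values are raw UMI counts per gene and cell, which the authors made with Cell Ranger, version 7.1.0 per the file headers and 3.0.1 per the submitters' processing notes. Those notes also name Seurat, STAR, HTSeq, DESeq2 and the mm10 build, without roles. Periosteum samples were not analysed here, and 6 bulk columns were not used because their names match no sample.

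Cells were kept from 500 detected genes and up to a mitochondrial share of 10%, and doublets called by Scrublet in scanpy 1.11.5 were removed. Depth ran from 500 to 65956 UMIs per barcode in sham and from 500 to 76727 in DMM. Counts were scaled to 10000 per cell, and 2000 variable genes, 30 principal components, 15 neighbours and Leiden resolution 1 (leidenalg 0.10.2) gave 26 clusters. The 31 genes and the pathway list (96 listed, 93 in the files) were left out of the variable genes. A cluster took the name of the best of 22 marker lists where the mean log2 fold was at least 0.75, at least 3 markers passed that value and no other list had more of its 10 leading genes. The connective tissue pool holds named stromal and cartilage clusters and unnamed ones with Serpinh1 in at least 50% of cells.

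UMIs were summed per class and library with numpy 2.4.6 and scipy 1.17.1; intervals are exact at 95%, and a count of 0 is given its limit of 3 counts. The script was tested on simulated data. The text names all 31 genes, pathway genes that passed the rule in the superficial, chondrocyte or connective tissue class, and up to 3 leading genes of a cluster (1 leading gene is not reported here). Lining, fibroblast, osteoblast and marrow stromal comparisons were added after seeing the data. The members and lists were chosen with earlier results of these data known. Positions are from GENCODE vM21 and promoters from RefSeq GRCm38.p6.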

Additional observations from a re-analysis of the deposited data

How the results depend on the processing

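No paired analysis was possible because each group has 1 library, and no library could be left out for the same reason. Over the alternatives the members' median log2 ratio ran from -0.44 to -0.09 in superficial cells, -0.30 to -0.09 in connective tissue, -0.59 to -0.03 in lining cells, -0.57 to -0.25 in fibroblasts, -0.55 to -0.16 in osteoblasts and 0.06 to 0.50 in marrow stromal cells, and it crossed 0 in chondrocytes (-0.09 to 0.14). Among superficial cells the count of higher genes went from 0 to 1 with median-of-ratios scaling, without the 50 most abundant genes, after thinning and at a lower fold minimum, and that of lower genes from 3 to 1 with median-of-ratios scaling, 5 at a minimum of 10 UMIs, 0 at 200 UMIs, 7 at the lower fold minimum and 0 at 2-fold. Among chondrocytes higher genes went from 0 to 1 (5% mitochondrial limit, Leiden 0.5 and 2.0, members among the variable genes, centred libraries, median-of-ratios, without the 50 most abundant genes) or 2 (lower fold), and lower genes from 0 to 1 (a higher gene minimum per cell, Leiden 0.5, centred, thinned), 2 (5% limit, lower fold) or 4 (doublets kept). In connective tissue higher genes went from 0 to 1 (median-of-ratios) or 2 (lower fold), and lower genes from 7 to 3 (median-of-ratios, 2-fold) or 13 (lower fold). In lining cells higher genes went from 0 to 1 (Leiden 2.0, centred, median-of-ratios) or 2 (lower fold), and lower genes from 11 to 1 (thinned), 3 (200 UMIs) or 4 (2-fold). In fibroblasts higher genes went from 1 to 0 (10 settings) or 2 (lower fold), and lower genes from 11 to 6 (thinned, 2-fold) or 4 (200 UMIs). In osteoblasts lower genes went from 5 to 8 (a higher gene minimum per cell, members among the variable genes, centred) or 2 (thinned, 200 UMIs, 2-fold). In marrow stromal cells higher genes went from 4 to 0 at 2-fold and lower genes from 0 to 1 at Leiden 0.5.

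The marrow stromal over superficial ratio of MHC class I went from 15.1 to 13.4 with doublets kept, 9.28 at Leiden 0.5 and 1.70 as a ratio of shares of cells in sham, and from 18.8 to 16.8, 10.6 and 1.73 in DMM. The Isg15 perivascular over superficial ratio went from 43.1 to 204 and from 72.6 to 226 as a ratio of thinned shares. The share of connective tissue cells with several effectors went from 0.749% to 8.64% unthinned, 4.02% at 2 genes and 0.227% at 4 in sham, and from 0.561% to 7.17%, 4.11% and 0.134% in DMM. The MHC class I ratio of Procr cells in DMM went from 1.10 to 0.955 after thinning. The cause of these shifts was not tested, except that higher minimums and thinning leave fewer genes with enough UMIs. With 1 library of 3 pooled mice per group, the spread between mice is unknown.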
